A study of Mus musculus with 8 samples.

Results

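The genes described here encode 10 C-type lectin receptors of myeloid cells: Clec4a1, Clec4a2, Clec4a3, Clec4d, Clec4e, Clec4n, Clec5a, Clec7a, Mrc1 and Clec10a. They were chosen by name, and each of the 10 was found among the 21958 genes of both expression tables. RNA was sequenced in bulk from mouse bone marrow-derived monocytes that were cultured with M-CSF and RANKL, the cytokines that drive monocytes towards osteoclasts. The 8 libraries formed 4 groups of 2 and belonged to 2 experiments. The question was how the loss of ARID1A, a subunit of the BAF chromatin remodelling complex, and the inhibition of BET bromodomain proteins by JQ1 changed the transcripts of such cells.

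All cultures came from C57BL/6 mice and received M-CSF at 50 ng/ml and RANKL at 100 ng/ml. The study's methods give an age of 4 to 6 weeks for the donor mice. In the Arid1a experiment, LysM-Cre;Arid1a fl/fl cells (Arid1a cKO) were set against cells labelled as control, whose alleles the labels do not list. LysM-Cre is driven by the lysozyme M promoter, which is active in monocytes, macrophages and neutrophils, and it removes exons of Arid1a. In the JQ1 experiment, cells treated with JQ1, given in the methods as 0.08 uM, were set against vehicle-treated controls. The table of this experiment heads its columns with codes ending in 0 or 4 before the replicate number. The 0 was taken here as vehicle and the 4 as JQ1. Every direction given for JQ1 rests on that reading, and the libraries of each group are called a and b. The study describes the Arid1a libraries as biologically independent without saying whether animals or cultures were separate, and for the JQ1 libraries the sources used here do not state it, so that p-values there measure a spread that may be technical.

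C-type lectin receptors are surface proteins that bind sugars and lipids of microbes or of dying cells through a C-type lectin domain. Activating receptors signal through ITAM motifs, which lie in their own tail or in the adaptors FcR-gamma (Fcer1g) and DAP12 (Tyrobp), and recruit the kinase Syk. Inhibitory receptors carry an ITIM that recruits the phosphatases SHP-1 and SHP-2, and a further kind takes up its ligands by endocytosis. The adaptors FcR-gamma and DAP12 also carry the costimulatory signals that osteoclast precursors need beside RANKL.

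Of these genes, 6 lie in 1 cluster on mouse chromosome 6, chr6:122898807-123266829 in build GRCm39, a span of 368 kb. Clec4a1 (chr6:122898807-122911578), Clec4a3 (chr6:122929474-122946834), Clec4a2 (chr6:123083387-123120958), Clec4n (chr6:123206802-123223980) and Clec4d (chr6:123239070-123252224) are on the plus strand. Clec4e (chr6:123258748-123266829) is on the minus strand at the far end. Clec5a (chr6:40551828-40562755) and Clec7a (chr6:129438554-129449742) are elsewhere on the same chromosome, both on the minus strand. Mrc1 (chr2:14234203-14336868) and Clec10a (chr11:70047023-70061660) are on the plus strand of other chromosomes. The main annotated transcript has 6 exons in each of the Clec4 genes and in Clec5a, 5 in Clec7a, 9 in Clec10a and 30 in Mrc1. No stretch of at least 50 bases with at least 98% identity to another gene was found in the main transcript of 9 of the 10. Only the main transcripts were searched, and that of Clec7a has 707 bases of the 2638 exonic bases of the gene. Clec4a2 had such a stretch over 3.62% of its transcript, which was shared with many unrelated transcripts. The exons of Clec4a2 overlapped those of a gene on the opposite strand over 16 bases and those of Clec5a did so over 44 bases, and the strand setting of the counting is not given in the sources used here.

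Start site regions are shown for 5 receptors, since neighbours in the cluster responded differently and PU.1, the myeloid master factor, is a subject of the study. A RefSeq promoter of 300 bases, 250 before and 50 after the start site, was matched for 8 of the 10 receptors, in build GRCm38.p6, while Clec4n and Clec10a had no entry. Clec4a1, Clec4a3 and Clec4d show nearly the same shift between the builds. With that shift, the window of Clec4a2 lies downstream of the gene start given above, inside the gene. It therefore describes a RefSeq start and not the gene start used for its position in the cluster. Capitals mark matches on either strand to 6 patterns: GAGGAA (PU.1 core), GAAANNGAA (IRF repeat), TTCNNNGAA (STAT palindrome), TGANTCA (AP-1), TTGCNNAA (C/EBP) and CACGTG (E-box).
Clec4a1 promoter, chr6:122921598-122921897, plus strand: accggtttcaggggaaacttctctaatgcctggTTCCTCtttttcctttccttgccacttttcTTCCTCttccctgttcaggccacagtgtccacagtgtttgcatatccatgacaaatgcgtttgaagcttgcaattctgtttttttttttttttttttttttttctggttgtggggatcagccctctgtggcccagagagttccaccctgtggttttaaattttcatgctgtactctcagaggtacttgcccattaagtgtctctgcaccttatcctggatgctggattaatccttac
Clec4a3 promoter, chr6:122952265-122952564, plus strand: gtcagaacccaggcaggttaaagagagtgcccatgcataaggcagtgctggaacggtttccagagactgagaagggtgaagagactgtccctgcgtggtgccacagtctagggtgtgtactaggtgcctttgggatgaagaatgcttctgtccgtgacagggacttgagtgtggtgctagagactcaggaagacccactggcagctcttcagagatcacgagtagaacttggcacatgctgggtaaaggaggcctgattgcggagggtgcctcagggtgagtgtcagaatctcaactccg
Clec4a2 promoter, chr6:123122440-123122739, plus strand: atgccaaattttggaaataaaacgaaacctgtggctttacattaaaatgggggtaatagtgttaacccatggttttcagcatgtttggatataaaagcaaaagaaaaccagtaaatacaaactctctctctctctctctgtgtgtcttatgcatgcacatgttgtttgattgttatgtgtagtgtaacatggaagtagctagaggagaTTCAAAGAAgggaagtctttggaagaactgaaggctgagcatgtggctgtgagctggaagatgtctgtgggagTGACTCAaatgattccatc
Clec4d promoter, chr6:123261857-123262156, plus strand: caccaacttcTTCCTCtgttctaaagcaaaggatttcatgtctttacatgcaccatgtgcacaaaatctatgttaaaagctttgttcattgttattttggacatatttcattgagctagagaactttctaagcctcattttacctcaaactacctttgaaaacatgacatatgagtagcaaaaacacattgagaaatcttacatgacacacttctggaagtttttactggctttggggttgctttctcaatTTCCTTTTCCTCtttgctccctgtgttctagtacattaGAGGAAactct
Clec7a promoter, chr6:129472730-129473029, minus strand: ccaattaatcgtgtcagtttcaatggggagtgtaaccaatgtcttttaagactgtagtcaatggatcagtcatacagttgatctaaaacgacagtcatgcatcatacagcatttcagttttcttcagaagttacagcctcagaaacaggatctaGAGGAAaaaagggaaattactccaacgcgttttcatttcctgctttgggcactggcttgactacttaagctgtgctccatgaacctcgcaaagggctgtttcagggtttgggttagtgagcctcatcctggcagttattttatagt

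A match describes letters in these windows and no more. The PU.1 core was found in 6 of the 8 windows read and in 28.3% of all 27025 promoters of the table. Clec4a1 held it 2 times, Clec4d, Clec4e, Clec5a and Mrc1 held it 3, 2, 2 and 3 times, and Clec7a held it once, 96 bases before its start. The windows of Clec4a2 and Clec4a3 held no such match. Clec4a3 matched none of the 6 patterns. The IRF repeat was matched in 1 window, that of Clec4d, where it overlapped a PU.1 core in the run of capitals after the start (8.57% of promoters). Clec4a2 held a STAT palindrome (8.47% of promoters) and an AP-1 pattern (7.93%). The C/EBP pattern stood in Clec4e (10.8%) and the E-box in 0 of the 8 windows (7.24%). The windows of Clec4a1 and Clec4a3 were identical at 51.9% of aligned bases, those of Clec4a1 and Clec4a2 at 48.5%.

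Library totals ran from 15108239 to 17302136 counted reads, and the 10 receptors took 0.129% to 0.177% of them. Reads over the whole Arid1a gene numbered 2616 and 3554 in the controls and 2031 and 1888 in the cKO libraries, a fall of 0.65 ± 0.15 (SE) on the log2 scale (edgeR quasi-likelihood test, Benjamini-Hochberg adjusted p = 0.00607). Hexim1, which is induced by BET inhibition, stood at 878 and 854 reads in the vehicle and at 1583 and 1882 in the JQ1 libraries (log2 change 0.99 ± 0.07, edgeR adjusted p = 3.35e-24). The Arid1a control libraries differed more from each other than any other pair, with a chi-square of 16.1 per degree of freedom against 2.64 to 3.82 for the other pairs. All 12 monocyte and macrophage markers passed the filter on low counts, and the markers of B, T and NK and erythroid cells passed in 0 cases, with at most 12 reads for any of them in a library. Of 7 stromal markers, 3 were tested after Arid1a loss and 4 with JQ1. Col1a1 had 342 and 289 reads in the JQ1 controls and 142 and 134 with JQ1. It changed by log2 0.00 ± 0.19 after Arid1a loss (edgeR adjusted p = 0.994) and by -1.20 ± 0.15 with JQ1 (8.63e-12). Of 8 mast cell and basophil markers, 1 was tested in each experiment. Gata2 went from 38 and 24 reads to 151 and 170 in the cKO, and Kit from 79 and 95 to 7 and 23 with JQ1.

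On FPKM, which is the read count over gene length and library size, the receptors spanned a wide range of levels. Clec4d was the highest of the 10 in every group, at 326 ± 34.4 FPKM (mean ± SD, n = 2) in the Arid1a controls, 330 ± 20.4 in the cKO, 374 ± 29.2 in the JQ1 controls and 218 ± 4.01 with JQ1, at or above 99.3% to 99.7% of all genes. Clec10a was the lowest in every group, between 0.212 and 2.54 FPKM on average. In the Arid1a controls the order after Clec4d was Clec5a (59.4 FPKM), Clec4a2 (47.3), Clec4e (45.7), Mrc1 (22.5), Clec4n (18.4), Clec4a1 (15.8), Clec4a3 (10.3), Clec7a (4.78) and Clec10a (1.37). The libraries of Clec4a2 and Clec4e overlapped in that order, while those of the other neighbours did not. In the cKO, Clec4a1 (53.3 FPKM) had moved up beside Clec4e (53.6), with overlapping libraries, and Mrc1 (18.3) stood below Clec4n (22.4).

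The JQ1 controls had another order. Mrc1 at 79.9 ± 6.81 FPKM and Clec4n at 77.4 ± 5.71 followed Clec4d with overlapping libraries, ahead of Clec5a (50.8), Clec4e (33.1), Clec4a2 (32.6), Clec4a3 (16.0), Clec7a (12.4), Clec4a1 (12.0) and Clec10a (2.54). Clec4e and Clec4a2 overlapped, as did Clec7a and Clec4a1. With JQ1 the levels after Clec4d were 107 FPKM for Mrc1, 37.4 for Clec5a, 32.7 for Clec4n, 23.1 for Clec4e, 19.1 for Clec7a, 8.72 for Clec4a2, 6.57 for Clec4a3, 4.54 for Clec4a1 and 1.38 for Clec10a, with no overlap between neighbours. The control groups of the experiments were not tested against each other, since a difference between them and a difference between the experiments cannot be told apart.

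**Figure D1:**
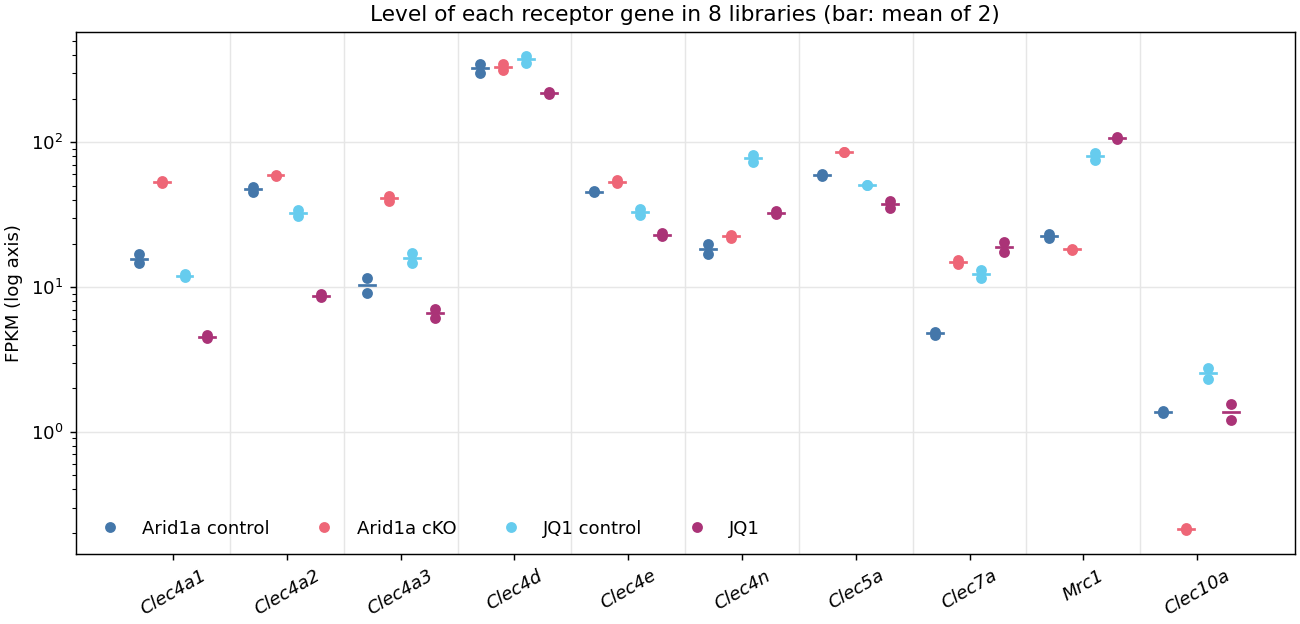
Level of each receptor gene in the 8 libraries, in FPKM on a log axis, with 1 point per library and a bar at the mean of 2. Clec4d lies above 200 FPKM in every library, Clec4a1, Clec4a3 and Clec7a stand apart between Arid1a control and cKO, and Clec10a falls to about 0.2 FPKM in the cKO.

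Clec4a1, Clec4a2 and Clec4a3 belong to the DCIR family of the mouse, in which Clec4a2 (DCIR1) carries an ITIM. Levels are given below as CPM, which are counts scaled to the TMM-adjusted total of each library. Clec4a1 stood at 26.0 and 22.1 CPM in the Arid1a controls and at 83.1 and 86.9 in the cKO. With JQ1 it went from 18.7 and 18.0 CPM in the controls to 7.34 and 7.07. The groups did not overlap in either experiment, and the gene was higher in both cKO libraries and lower in both JQ1 libraries. It rose 3.53-fold after Arid1a loss (log2 1.82 ± 0.12 (SE), edgeR adjusted p = 1.97e-06) and fell 2.55-fold with JQ1 (log2 -1.35 ± 0.15, adjusted p = 3.96e-13). In bulk samples such as these, fewer cells of a type and less RNA per cell cannot be told apart.

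Clec4a3 (DCIR3) had the largest rise of the 10 after Arid1a loss. It was at 15.0 and 11.8 CPM in the controls and at 53.7 and 57.9 in the cKO, from 246 and 183 reads to 868 and 903. In the JQ1 experiment it stood at 22.5 and 19.2 CPM with vehicle and at 8.21 and 9.54 with JQ1. Both comparisons were without overlap and in opposite directions. The rise was 4.16-fold (log2 2.06 ± 0.14, edgeR adjusted p = 2.61e-06) and the fall 2.34-fold (log2 -1.23 ± 0.14, adjusted p = 1.68e-12).

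Clec4a2 was at 142 and 129 CPM in the Arid1a controls and at 179 and 175 in the cKO. With JQ1 it dropped from 89.1 and 98.5 CPM to 25.5 and 26.5, the largest fall with JQ1 among the 10. The cKO libraries were above and the JQ1 libraries below their controls. The change was 1.31-fold upwards after Arid1a loss (log2 0.39 ± 0.09, edgeR adjusted p = 0.00927) and 3.60-fold downwards with JQ1 (log2 -1.85 ± 0.09, adjusted p = 3.72e-41). The first of these calls was lost without cKO library 1 (adjusted p = 0.169) or 2 (0.133), at log2 0.37 and 0.40.

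Clec4e (Mincle), Clec4d (MCL) and Clec4n (Dectin-2) signal through FcR-gamma. Clec4e and Clec4d bind the mycobacterial glycolipid cord factor and Clec4n binds fungal mannans. Clec4d was at 551 and 469 CPM in the Arid1a controls and at 563 and 518 in the cKO, so that the groups overlapped. The log2 change was 0.08 ± 0.10 (edgeR adjusted p = 0.544). It depended on the control library, being 0.20 without control 1 (adjusted p = 1.32e-05) and -0.03 without control 2 (0.595). With JQ1, Clec4d went from 553 and 622 CPM to 360 and 351, and both treated libraries were below both controls. It fell by 0.73 ± 0.05 on the log2 scale, 1.65-fold (edgeR adjusted p = 3.21e-25).

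Clec4e changed little in size. Its level was 225 and 219 CPM in the Arid1a controls, 277 and 267 in the cKO, 154 and 169 in the JQ1 controls and 119 and 114 with JQ1. The cKO libraries were above their controls and the JQ1 libraries below theirs. The change was log2 0.29 ± 0.08 after Arid1a loss (edgeR adjusted p = 0.0222) and -0.47 ± 0.06 with JQ1 (adjusted p = 2.32e-10). The call after Arid1a loss was lost without cKO library 1 (adjusted p = 0.348) or 2 (0.249) and with upper-quartile scaling (0.0585).

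Clec4n stood at 23.7 and 27.4 CPM in the Arid1a controls and at 31.9 and 33.1 in the cKO. The groups did not overlap, yet the change of log2 0.35 ± 0.12 missed the threshold (edgeR adjusted p = 0.0523). It passed with limma-voom (0.0491), without the filter (0.0417), without control 2 (0.000761), in 1 fit over 8 libraries (0.0142) and with the replicate block (0.0323). In the JQ1 experiment its level was 102 and 114 CPM with vehicle and 48.3 and 46.4 with JQ1. Both treated libraries were below the controls, a 2.28-fold fall (log2 -1.19 ± 0.07, edgeR adjusted p = 3.25e-29).

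Clec7a (Dectin-1), the receptor for beta-glucans of fungal walls, carries a single ITAM-like motif in its own tail. It was at 12.2 and 12.5 CPM in the Arid1a controls and at 38.8 and 41.9 in the cKO. With JQ1 it went from 30.1 and 34.3 CPM to 55.1 and 47.3. The gene was higher in the treated or mutant libraries of both experiments, with no overlap. It rose 3.27-fold after Arid1a loss (log2 1.71 ± 0.13, edgeR adjusted p = 4.84e-06) and 1.59-fold with JQ1 (log2 0.67 ± 0.09, adjusted p = 1.62e-09).

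Clec5a (MDL-1), which is coupled to DAP12 and binds dengue virus, was at 228 and 218 CPM in the Arid1a controls and at 338 and 335 in the cKO. In the JQ1 experiment it was at 191 and 192 CPM with vehicle and at 154 and 139 with JQ1. The cKO libraries were above and the JQ1 libraries below their controls. It rose 1.51-fold (log2 0.59 ± 0.08, edgeR adjusted p = 0.000396) and fell 1.31-fold (log2 -0.39 ± 0.06, adjusted p = 1.73e-08).

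Mrc1, the mannose receptor CD206, and Clec10a, the galactose-type lectin MGL1, are endocytic receptors that are widely used as markers of alternatively activated macrophages. Mrc1 was at 137 and 144 CPM in the Arid1a controls and at 118 and 120 in the cKO, with no overlap. The change of log2 -0.24 ± 0.09 did not pass (edgeR adjusted p = 0.0694), but it did without control 1 (9.02e-05), without control 2 (0.00437), with upper-quartile scaling (0.0255) and in 1 fit over 8 libraries (0.0145). With JQ1, Mrc1 went from 528 and 471 CPM to 686 and 705. Both treated libraries were higher, a 1.39-fold rise (log2 0.48 ± 0.05, edgeR adjusted p = 9.7e-15).

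Clec10a was counted with few reads. There were 63 and 61 in the Arid1a controls, 10 and 10 in the cKO, 126 and 103 in the JQ1 controls and 69 and 60 with JQ1. On the scaled level these were 3.83 and 3.93 CPM against 0.619 and 0.641, and 7.88 and 6.56 against 4.61 and 3.53. It was lower in the mutant and in the treated libraries, with no overlap. It fell 6.10-fold after Arid1a loss (log2 -2.61 ± 0.37, edgeR adjusted p = 0.000373), the largest change of any receptor in either experiment. With JQ1 the fall was 1.78-fold (log2 -0.83 ± 0.22, adjusted p = 0.00135), and that call was lost without JQ1 library b (log2 -0.64, adjusted p = 0.0637).

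**Figure D2:**
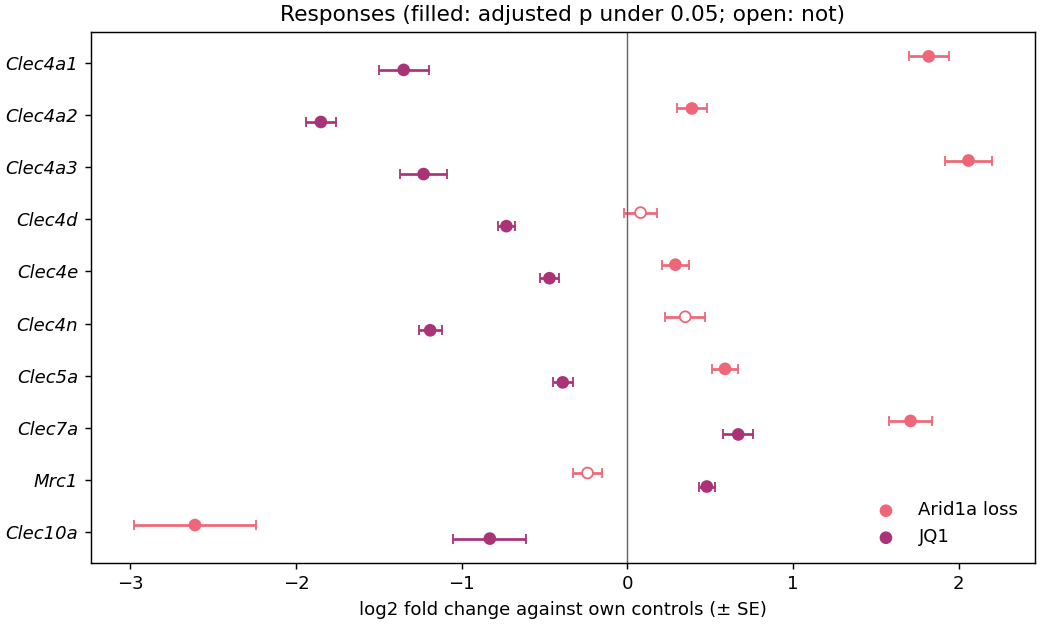
Log2 fold change of each receptor against its own controls, with its standard error, after Arid1a loss and with JQ1, where filled points passed an adjusted p of 0.05. Clec4a1 and Clec4a3 lie far to the right after Arid1a loss and to the left with JQ1, Clec7a lies to the right in both and Clec10a to the left in both.

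Of the 10 receptors, 6 rose and 1 fell after Arid1a loss, beside 34.4% of the 11319 genes tested, 18.1% higher and 16.3% lower. Clec4a1, Clec4a2, Clec4a3, Clec4e, Clec5a and Clec7a rose, Clec10a fell, and Clec4d, Clec4n and Mrc1 did not pass. The median log2 change was 0.37 for the receptors and 0.00 for all genes tested. The calls of Clec4a2, Clec4d, Clec4e, Clec4n and Mrc1 depended on which libraries were used. With single libraries left out, their log2 changes ran from 0.32 to 0.45, -0.03 to 0.20, 0.27 to 0.32, 0.25 to 0.45 and -0.28 to -0.20. With JQ1 all 10 passed, 2 higher and 8 lower, beside 39.8% of 11352 genes, 19.3% higher and 20.5% lower. Clec7a and Mrc1 were the genes that rose. The median was -0.78 for the receptors and 0.00 for all genes. Groups did not overlap for 9 of the receptors after Arid1a loss and for 10 with JQ1, where 69.2% and 68.4% of all genes did not overlap either.

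Read side by side, 5 receptors (Clec4a1, Clec4a2, Clec4a3, Clec4e and Clec5a) were higher after Arid1a loss and lower with JQ1, a pattern that 5.17% of the 10987 genes tested in both experiments had. Clec7a was higher in both (5.30% of genes) and Clec10a lower in both (6.12%). Clec4n and Clec4d did not pass after Arid1a loss and were lower with JQ1 (8.87%). Mrc1 did not pass after Arid1a loss and was higher with JQ1 (12.9%). No receptor was lower after Arid1a loss and higher with JQ1 (1.55%).

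Whether the experiments differed was tested as an interaction, the Arid1a response minus the JQ1 response, in 1 edgeR fit over the 8 libraries. All 10 receptors passed, 8 in the positive and 2 in the negative direction, beside 28.3% of 11767 genes, 15.8% positive and 12.5% negative. The median difference was 1.01 for the receptors and -0.02 for all genes. It was largest for Clec4a3 (log2 3.28 ± 0.20, adjusted p = 4.17e-09), Clec4a1 (3.17 ± 0.17, 7.29e-10) and Clec4a2 (2.23 ± 0.12, 9.97e-10). Clec7a, although it rose in both experiments, rose more after Arid1a loss by log2 1.04 ± 0.16 (edgeR adjusted p = 0.000184). Clec10a, which fell in both, fell more after Arid1a loss, with a difference of -1.78 ± 0.42 (edgeR adjusted p = 0.00496). For Mrc1 the difference was -0.72 ± 0.10 (edgeR adjusted p = 5.27e-05).

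Within the cluster the response to Arid1a loss differed along the chromosome. Clec4a1 and Clec4a3, whose starts are 31 kb apart at one end, changed by log2 1.82 and 2.06. Clec4a4 (DCIR2), which starts 69 kb from Clec4a1, changed by 1.53 ± 0.39 (edgeR adjusted p = 0.0112), from 14 and 14 reads to 42 and 39. The receptors further on changed less, with 0.39 for Clec4a2 at 185 kb, 0.35 for Clec4n at 308 kb, 0.08 for Clec4d at 340 kb and 0.29 for Clec4e at 360 kb. Clec4b1 and Clec4b2, the other genes in the interval, had at most 8 reads in any library and were not tested. The JQ1 response had another profile, with the largest fall at Clec4a2 (-1.85) and the smallest at Clec4e (-0.47). Clec4a4 was not tested with JQ1, with 2 and 10 reads in the JQ1 controls and 0 and 3 with JQ1. These are positions of the 7 genes tested after Arid1a loss, with no test of position.

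**Figure D3:**
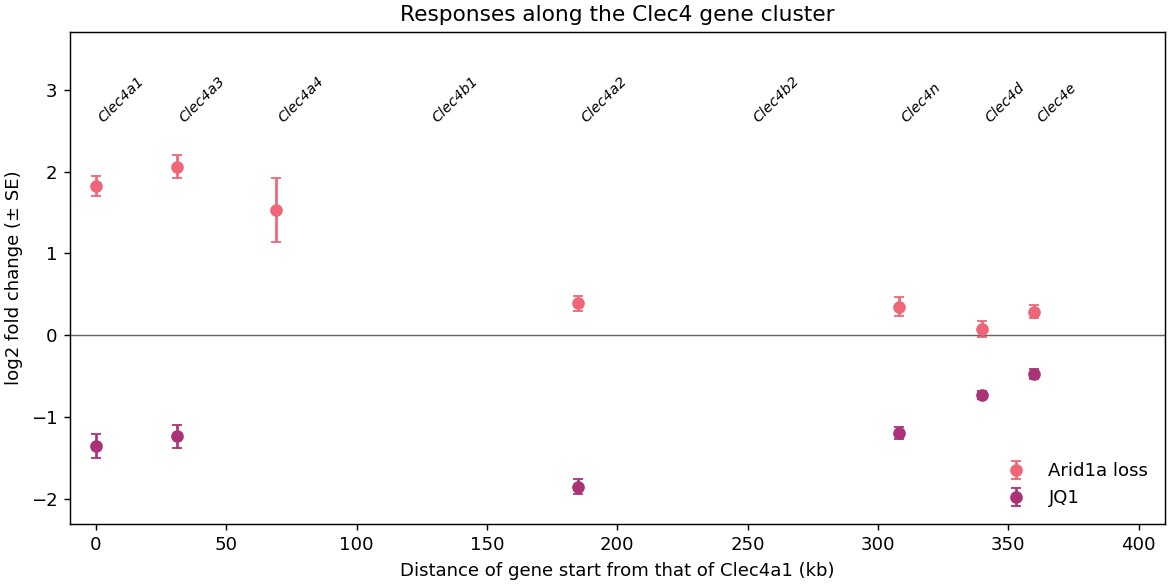
Log2 fold change and standard error of the tested genes of the Clec4 cluster against the distance in kb of each gene's start from that of Clec4a1. The first 3 genes lie at 1.53 or above after Arid1a loss and the later ones at 0.39 or below, while every tested gene lies below 0 with JQ1.

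The make-up of the receptor transcripts moved with these changes. Clec4d made up 60.5% and 57.6% of the summed FPKM of the 10 genes in the Arid1a controls, 49.8% and 47.5% in the cKO, 52.8% and 55.4% in the JQ1 controls and 47.6% and 47.5% with JQ1. Mrc1 was 3.77% and 4.43% in the Arid1a controls and 2.62% and 2.76% in the cKO, but 12.7% and 10.5% in the JQ1 controls and 22.8% and 24.0% with JQ1. Clec4a1 and Clec4a3 each took a larger share in the cKO than in any other group. Clec7a took 0.81% and 0.931% in the Arid1a controls and 2.08% and 2.33% in the cKO, but 4.41% and 3.88% with JQ1. The share of Clec4a1 was 2.92% and 2.79% in the Arid1a controls and 7.54% and 8.17% in the cKO. Shares of 1 sum are not independent, since a rise of one lowers the others. The summed level of the 10 was 1364 and 1256 CPM in the Arid1a controls, 1683 and 1635 in the cKO, 1696 and 1746 in the JQ1 controls and 1467 and 1449 with JQ1.

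**Figure D4:**
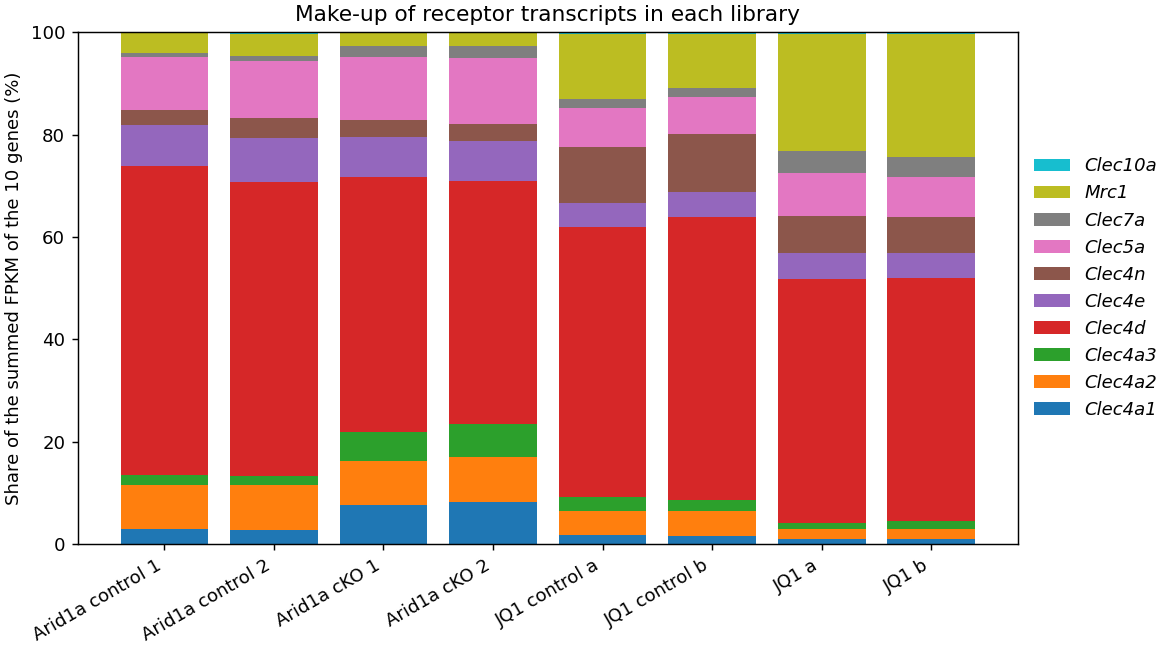
Share of each receptor in the summed FPKM of the 10 genes, in percent, with 1 bar per library. Clec4d is the largest part of every bar, Clec4a1 and Clec4a3 widen in the cKO, and Mrc1 reaches 22.8% and 24.0% with JQ1.

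The pathway downstream of the receptors was described with a list of 28 adaptors, kinases and transcription factors. All 28 were tested. After Arid1a loss 16 rose and 1 fell, beside 18.1% and 16.3% of all genes tested, with a median of log2 0.36. Among the strongest by p were Fgr (1.60 ± 0.10, edgeR adjusted p = 1.6e-06), a Src family kinase of myeloid cells, Vav3 (0.97 ± 0.11, 0.000109), a guanine nucleotide exchange factor, the lipid phosphatase Inpp5d (0.75 ± 0.09, 0.000143) and Prkcd (0.54 ± 0.08, 0.000589), the kinase that phosphorylates CARD9. Src fell by 0.71 ± 0.12 (edgeR adjusted p = 0.000956). The shared adaptors were named after their values were seen. Fcer1g changed by 0.37 ± 0.10 (edgeR adjusted p = 0.0173), Tyrobp by 0.48 ± 0.09 (0.00304) and Syk by 0.52 ± 0.09 (0.00162). Without 1 cKO library the calls of Fcer1g (adjusted p = 0.140 or 0.163) and, without cKO 1, of Tyrobp (0.0991) were lost. The complex of Card9, Bcl10 and Malt1, which links Syk to NF-kB, did not pass, at log2 -0.14, -0.01 and 0.16 (edgeR adjusted p = 0.377, 0.975 and 0.318). Without control 2, Card9 changed by -0.25 and Malt1 by 0.32.

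With JQ1, 6 of the 28 rose and 4 fell, beside 19.3% and 20.5% of all genes tested, with a median of 0.05. Src changed by -1.87 ± 0.22 (edgeR adjusted p = 6.64e-13), while Lyn changed by 0.43 ± 0.05 (3.47e-11), Rel by 0.33 ± 0.08 (0.000583) and Prkcd by 0.19 ± 0.05 (0.000844). Fcer1g changed by 0.15 ± 0.05 (edgeR adjusted p = 0.0104), a call that was lost with the replicate block (0.0538), in 1 fit over 8 libraries (0.190), without JQ1 control a (0.106) and without JQ1 library b (0.169). Tyrobp and Syk gave 0.02 ± 0.05 and 0.09 ± 0.05 (0.810 and 0.138). So the 3 FcR-gamma coupled receptors changed with JQ1 by log2 -0.47 to -1.19, whereas their adaptor was not lower. Malt1 fell by 0.25 ± 0.08 with JQ1 (edgeR adjusted p = 0.0103), a call that was lost with DESeq2 (0.072) and in 1 fit over 8 libraries (0.107). Card9 and Bcl10 did not pass with JQ1, at 0.02 and 0.16 (edgeR adjusted p = 0.888 and 0.113). The difference between the responses passed for 12 of the 28, all of them positive, beside 28.3% of all genes tested, 15.8% positive.

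**Figure D5:**
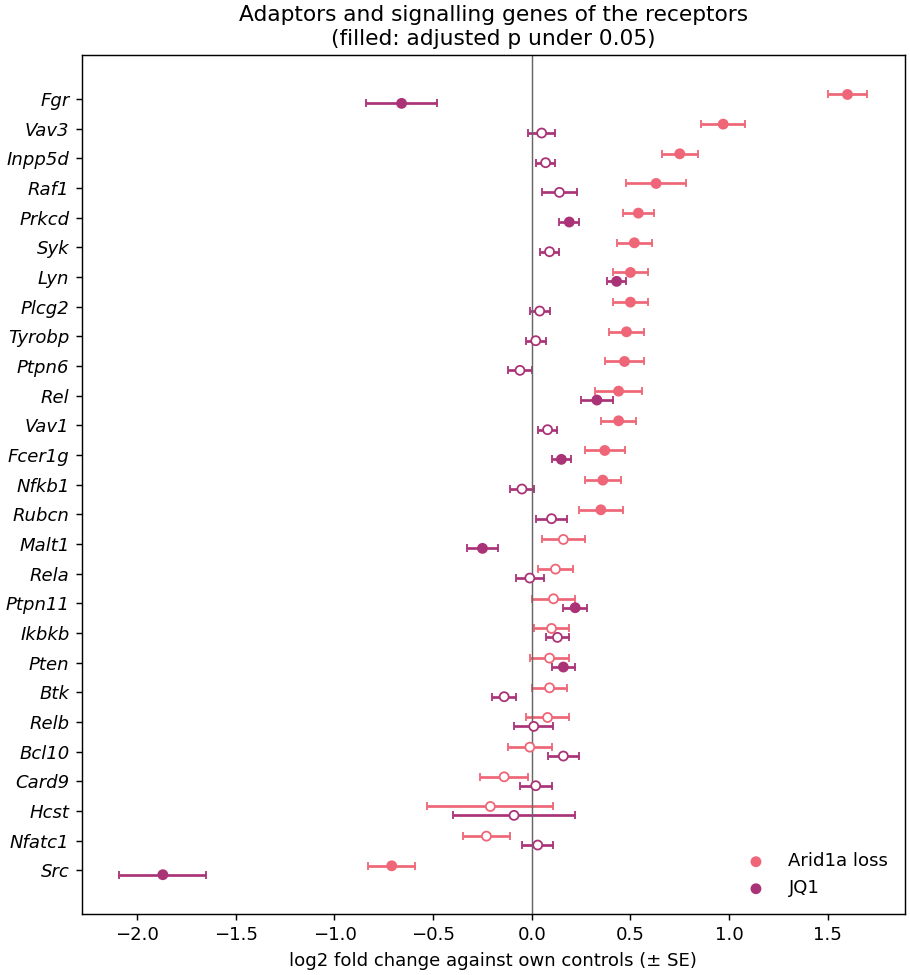
Log2 fold change and standard error of 27 adaptor and signalling genes after Arid1a loss and with JQ1, ordered by the first, with filled points for an adjusted p under 0.05. Fgr lies to the right after Arid1a loss and to the left with JQ1, and Src lies to the left in both.

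Of 59 other C-type lectin genes, 18 were tested after Arid1a loss. Of these 9 rose and 2 fell, beside 18.1% and 16.3% of all genes tested, with a median of log2 0.70. Cd72, an inhibitory lectin with ITIMs, changed by 1.14 ± 0.09 (edgeR adjusted p = 7.67e-06) and Cd93 by 0.74 ± 0.10 (0.000271). Cd207 (langerin) changed by -1.77 ± 0.19 (edgeR adjusted p = 6.68e-05) and Layn (layilin) by -1.60 ± 0.12 (6.22e-06). With JQ1, 17 were tested, and 0 rose and 11 fell, beside 19.3% and 20.5% of all genes tested, with a median of -0.64. Cd207 went from 59 and 44 reads to 2 and 1, Clec12a changed by -0.64 ± 0.05 (edgeR adjusted p = 1.43e-20), Cd72 by -0.68 ± 0.07 (4.58e-14), Clec2d by -0.80 ± 0.12 (2.08e-08) and Colec12 by -0.56 ± 0.09 (5.6e-08). Mgl2, the close relative of Clec10a and named after its values were seen, had 0, 6, 0 and 0 reads in the Arid1a experiment and was not tested there. In the JQ1 controls it had 63 and 44 reads and with JQ1 14 and 17.

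Of 18 genes listed as outputs of the activating receptors, 12 were tested after Arid1a loss. Of these 8 rose and 0 fell, beside 18.1% and 16.3% of all genes tested, with a median of log2 0.69. Nos2 (3.31 ± 0.13, edgeR adjusted p = 1.64e-07), Cxcl2 (2.00 ± 0.14, 2.86e-06), Il1rn (0.99 ± 0.08, 1.14e-05), Nlrp3 (0.70 ± 0.11, 0.000592) and Il1b (4.70 ± 0.98, 0.00414) were the strongest by p. Il1b was near the floor, with 1 and 0 reads in the controls and 14 and 18 in the cKO. With JQ1, 3 of 11 rose and 4 fell, beside 19.3% and 20.5% of all genes tested, with a median of 0.23. Il1rn changed by -3.02 ± 0.07 (edgeR adjusted p = 3.39e-70), Nlrp3 by -1.11 ± 0.08 (2.03e-25), Il10 by -3.07 ± 0.78 (0.000718), Nos2 by -2.49 ± 0.67 (0.00141) and Ccl4 by 1.10 ± 0.09 (1.66e-22). Reads were few for Il10, with 14 and 21 in the JQ1 controls and 1 and 3 with JQ1. The same holds for Nos2, with 21 and 19 against 2 and 5. The calls of Il10 without control b and of Nos2 without JQ1 library a were lost, both at an adjusted p of 0.053. Whether these genes moved through the receptors was not tested.

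Mrc1 and Clec10a were read beside 18 other genes of alternative activation. After Arid1a loss 14 were tested, and 6 rose and 2 fell, beside 18.1% and 16.3% of all genes tested, with a median of log2 0.23. Tgm2 (1.38 ± 0.10, edgeR adjusted p = 3.94e-06), Arg1 (1.80 ± 0.14, 5.87e-06), Chil3 (2.37 ± 0.20, 1.16e-05) and Ccl22 (2.74 ± 0.34, 0.000165) rose while Clec10a fell. Folr2 changed by -1.14 ± 0.18 (edgeR adjusted p = 0.000898), in the direction of Clec10a. With JQ1, 1 of 12 rose and 5 fell, beside 19.3% and 20.5% of all genes tested, with a median of -0.17. Cd36 was the gene that rose (0.18 ± 0.05, edgeR adjusted p = 0.00101), a call that was lost without JQ1 library b (0.0769). Tgm2 changed by -0.72 ± 0.07 (edgeR adjusted p = 1.02e-17), Msr1 by -0.47 ± 0.05 (6.38e-15), Pparg by -0.79 ± 0.13 (4.67e-07) and Folr2 by -0.89 ± 0.20 (0.000141).

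Marker lists of other myeloid states also changed, not all in the direction of most receptors. The counts below stand beside 18.1% of all genes tested that rose and 16.3% that fell after Arid1a loss. With JQ1 these shares were 19.3% and 20.5%. Of 14 neutrophil markers, 9 of 12 tested rose and 0 fell after Arid1a loss, and their summed level went from 150 to 155 CPM in the controls to 254 to 280 in the cKO. With JQ1, 0 of 11 rose and 8 fell, and the sum went from 95.5 to 96.2 CPM to 37.8 to 38.9. Mmp8 was the largest part of these sums in every group. Its mean was 123 CPM in the Arid1a controls and 132 in the cKO (log2 0.11, edgeR adjusted p = 0.426). In the JQ1 experiment it was 51.5 CPM with vehicle and 14.2 with JQ1. The largest by p were Ngp, S100a9, Ltf, Lcn2 and S100a8 after Arid1a loss, at log2 1.99 to 3.28, and Mmp8, S100a9, Mpo, Cebpe and Ngp with JQ1, at -0.76 to -2.73. Ly6g had 2 reads in 1 library and 0 in the other 7, and Retnlg had at most 3 reads. Of 12 monocyte and macrophage markers 8 rose and 2 fell after Arid1a loss, and their summed level was 16800 to 19300 CPM without and 14500 CPM with the deletion, where the sum follows Lyz2 (log2 -1.39). With JQ1, 4 rose and 6 fell, and the sum went from 20900 to 21900 CPM to 25200 to 26000. Of 10 osteoclast markers, 1 of 8 tested rose and 4 fell after Arid1a loss (461 to 496 CPM in the controls, 260 to 270 in the cKO), and 1 of 7 rose and 5 fell with JQ1 (223 to 237 CPM, 122 to 134). Of 10 dendritic cell markers, 1 was tested after Arid1a loss (Itgax, log2 0.94, passed) and 2 with JQ1 (Itgax, -1.10, passed, and Batf3, 0.29, not passed). Siglech was at 0 in all 8 libraries and Flt3 and Xcr1 had at most 4 reads. The part of these cell states in the receptor changes was not tested.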

How the data were processed

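Bulk RNA-seq of 8 libraries in 4 groups of 2 was analysed. Per the labels and the study's methods, the authors trimmed reads with cutadapt, aligned them to GRCm39 with HISAT2 and counted them per gene with HTSeq, with no pooling. The annotation release is not given in the sources used here. The deposited tables hold raw counts (15108239 to 17302136 per library) and FPKM computed by the authors from count, gene length and library total. FPKM was recomputed here from the counts in all libraries, and it differed from the deposited Arid1a columns by at most a relative 1.2e-07. The 4 FPKM columns of the JQ1 table were not used. Of the 21958 genes 51 carry no symbol. Groups came from the labels. The JQ1 table was read by its column codes, 0 as vehicle and 4 as JQ1, and its libraries could not be tied to single samples.

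Low counts were removed with filterByExpr, TMM factors were applied, and edgeR 4.0.16 (R 4.3.3) gave quasi-likelihood F tests, each experiment by itself and unpaired, over all genes. The difference of responses was an interaction in 1 fit over 8 libraries. P-values were adjusted by Benjamini-Hochberg and called at 0.05. An SE was taken as the log2 fold change over the root of F. The biological coefficient of variation was 0.0874, 0.0470 and 0.0704 in the 3 fits. The fits were tested on simulated counts. A replicate block was checked, since both groups of an experiment carry the numbers 1 and 2. Alternatives were DESeq2 1.42.0, limma-voom (limma 3.58.1), RLE and upper-quartile factors, and no or a stricter filter. Others were the replicate block, leaving out each library, 1 fit over 8 libraries, and a fold of 2 with unadjusted p under 0.05. The fold rule was not applied to the difference of responses, whose main fit already held all 8 libraries.

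The receptors and gene lists were chosen with earlier results of these data known. The rule for named genes took the 10 receptors, the 5 tested genes of smallest p of each list and experiment, cluster neighbours, Arid1a and Hexim1. Fcer1g, Tyrobp, Syk, Card9, Bcl10, Malt1, Mgl2, Itgax and genes of low count named as markers were chosen after values were seen. RefSeq promoters are of GRCm38.p6 and their coordinates were not mixed with those of the tables. Some genes that the rule takes are not reported here.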

Additional observations from a re-analysis of the deposited data

Results flagged for a closer look

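For each of the 10 receptors the response to Arid1a loss and the response to JQ1 differed by the edgeR interaction test. The difference, the first response minus the second, was log2 3.17 for Clec4a1, 2.23 for Clec4a2, 3.28 for Clec4a3, 0.81 for Clec4d (adjusted p = 8.08e-05), 0.76 for Clec4e (3.98e-05), 1.54 for Clec4n (5.42e-07), 0.98 for Clec5a (1.97e-06), 1.04 for Clec7a, -0.72 for Mrc1 and -1.78 for Clec10a. Its sign was that of a higher response after Arid1a loss for 8 receptors, beside 15.8% of all genes. Each experiment had its own controls and no library was shared, so that a difference between the experiments other than the treatment cannot be told apart from it.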

How the results depend on the processing

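The call and direction of all 10 receptors in the difference of responses were kept in 150 of 150 alternative fits. These fits did not include the rule of a fold of at least 2, so that the totals below are not like for like. The differences of Clec4d (log2 0.81), Clec4e (0.76), Clec5a (0.98) and Mrc1 (-0.72) were smaller than a fold of 2. In the Arid1a experiment 111 of 130 fits of single receptors kept both, 8 lost a call, 10 gained one and 1 reversed. In the JQ1 experiment 123 of 130 kept both and 7 lost a call. The number of receptors higher after Arid1a loss was 6 and fell to 3 (Clec4a1, Clec4a3 and Clec7a) with a fold of at least 2 and unadjusted p, and ran from 4 to 7 when single libraries were left out. The number lower was 1, and 2 with upper-quartile factors or in 1 fit over 8 libraries, and 1 to 2 with single libraries left out. With JQ1 the fold rule gave 0 higher and 4 lower in place of 2 and 8, and leaving out libraries gave 2 higher and 7 to 8 lower. Reversed signs were found only for values that had not passed: Clec4d after Arid1a loss ran from -0.03 to 0.20 with single libraries left out (lowest without control 2, highest without control 1), Bcl10 from -0.08 to 0.07 (above 0 without control 1 or cKO 1), Tyrobp with JQ1 from -0.03 to 0.07 (below 0 without control a or JQ1 library b) and Card9 with JQ1 from -0.11 (without control a) to 0.16. The cause was not tested. A group left with 1 library borrowed its spread from the other groups.

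Deviations of same-numbered libraries correlated at 0.023 in the Arid1a and at -0.037 in the JQ1 experiment. No shared effect of the number was seen, but this cannot show whether libraries were paired. With the replicate block Clec4n passed as higher after Arid1a loss (edgeR adjusted p = 0.0323). Every other receptor kept its call and direction there, as did all 10 with JQ1 and in the difference. With 2 libraries a group the precision is limited, most of all for Clec10a, which had 10 reads in each cKO library.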
